A study of Mus musculus with 23 samples.

Results

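The genes described here are 8 markers of upper-layer projection neurons of the cerebral cortex, chosen by name: Pou3f2, Pou3f3, Cux1, Cux2, Rorb, Rasgrf2, Calb1 and Mdga1. They are 8 of the 39017 genes of the count table, where they fill 9 rows because Cux2 is listed under 2 gene IDs. The choice used no measured value of these animals, although earlier results of the series were known when it was made. All 8 passed the filter on low counts at both ages.

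RNA was measured in cortex of 22 mice, as total RNA sequenced after depletion of ribosomal RNA. The mutant mice carried 1 allele of H3f3a, a gene for the histone variant H3.3, in which glycine 34 was replaced by arginine (G34R), valine (G34V) or tryptophan (G34W), beside 1 wild-type allele. The labels name neither a Cre driver nor a strain. At 10 weeks there were 3 G34R males, 3 G34V males, 1 male and 1 female with G34W, and 6 wild-type (WT) males with H3f3a +/+. At postnatal day 7 there were 4 G34R and 4 WT animals, 2 of each sex per genotype. The series concerns how a single substitution at this residue affects the brain. Total counts ranged from 28.4 to 90.1 M per library (M, mega).

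Upper-layer projection neurons are the excitatory neurons of the superficial cortex. They are born late in cortical development, and most send their axons to other cortical areas in the same or the opposite hemisphere. Transcription factors of the POU and CUX families guide their production, migration and dendrite growth, and several of these genes stay active in mature neurons, where they serve as layer markers. Deep-layer neurons, marked by genes such as Fezf2, Bcl11b and Tbr1, send axons below the cortex.

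The tissue label was compared with marker lists. The summed level of 12 excitatory neuron genes was 2821, 2913 and 3072 CPM (counts scaled to the size of each library) in G34R, 2848, 2972 and 3199 CPM in G34V and 2954 and 3285 CPM in G34W, against 3015 to 3179 CPM in the 6 WT at 10 weeks. Of the 8 mutants, 5 lay below every WT animal, while those with 3199 and 3285 CPM lay above every WT animal. In each substitution 0 of these 12 genes were called higher and 1 lower (edgeR). Of all genes tested, 5.61%, 4.25% and 1.61% were called in G34R, G34V and G34W. The sum of 12 pan-neuronal genes was 7580 to 7674 CPM in G34R, below the 7780 to 8896 CPM of every WT animal, and 7661 to 8288 CPM in G34V and 7538 and 8317 CPM in G34W. The sum of 12 interneuron genes was 993 and 1046 CPM in G34W, above the 858 to 963 CPM of every WT animal. Gene by gene, 0 of these 12 were called higher and 1 lower in G34W (edgeR). Their log2 fold changes in G34W were positive for 7 and negative for 5. The sum of 10 oligodendrocyte genes was 3329 to 4275 CPM in G34R and 2754 to 3593 CPM in G34V, below the 4400 to 5768 CPM of every WT animal, and 2987 and 4499 CPM in G34W. Of these 10 genes, 0 were called lower in G34R, 5 in G34V and 3 in G34W (edgeR), and 4, 9 and 8 were lower at an unadjusted p under 0.05. Such a p was found for 3851, 3321 and 3647 of all 21274 genes tested, in either direction. Markers of neighbouring tissue were present and uneven. The sum of 10 striatal genes was 608 to 829 CPM in G34R, 598 to 734 CPM in G34V and 969 to 1093 CPM in G34W, against 477 to 1096 CPM in WT. The sum of 7 choroid plexus genes was 15.5 and 205 CPM in the G34W animals, against 153 to 947 CPM in WT. The sum of 10 microglial genes was 646 to 746 CPM in G34R, 468 to 600 CPM in G34V and 429 to 489 CPM in G34W, above the 384 to 428 CPM of every WT animal. Among these microglial genes 9 were called higher in G34R, 6 in G34V and 0 in G34W (edgeR). At an unadjusted p under 0.05, 9, 9 and 5 were higher. The sum of 10 astrocyte genes was 3987 and 4811 CPM in G34W, against 3484 to 4164 CPM in WT. In G34R and G34V it lay within the WT range. The sum of 7 oligodendrocyte precursor genes was 179 to 195 CPM in G34V, below the 199 to 241 CPM of every WT animal. It was 199 to 223 CPM in G34R and 207 and 210 CPM in G34W. The part of these tissues and cells in the results below was not tested.

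At 10 weeks the members were unequal in level. Divided by the length of the annotated exons, Calb1 was highest in WT with 23.3 ± 1.96 CPM per kilobase (SD, n = 6). Rasgrf2 followed with 16.8 ± 0.809 and Cux2 with 9.07 ± 0.560 CPM per kilobase, and neither overlapped its neighbours by 1 SD. Pou3f3 had 7.16 ± 0.392, Rorb 6.06 ± 0.311 and Pou3f2 5.84 ± 0.745 CPM per kilobase. Rorb and Pou3f2 did not differ beyond their spread, nor did Pou3f2 and Cux1. Cux1 had 4.80 ± 0.425 and Mdga1 was lowest with 1.83 ± 0.397 CPM per kilobase. Exon length covers all annotated transcripts, which lowers the value of a gene with many alternative exons, such as Cux1 with 20024 bases.

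In the mutants at 10 weeks, Pou3f2 rose in G34R and G34V, Rorb rose in G34V and G34W, and Calb1 rose in G34R. The rises were small, between 1.20-fold and 1.36-fold. No member was called lower in any of the 3 substitutions, where Mdga1 had the most negative values, -0.39 in G34R and -0.37 in G34V on the log2 scale. In bulk tissue, changes in the number of upper-layer neurons, in RNA per cell and in the mix of other cells cannot be told apart.

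Against WT, 2 of the 8 members were called in G34R (edgeR's quasi-likelihood test, Benjamini-Hochberg adjusted p under 0.05 over all genes), where 5.61% of all genes tested were called. In G34V 2 of 8 were called, against 4.25% of all genes, and in G34W 1 of 8, against 1.61%. All of these calls were in the higher direction. The count of members called lower was 0 in each comparison, also at an unadjusted p under 0.05, and also with DESeq2 and limma-voom. Over all 21274 genes tested, edgeR called 565, 570 and 223 lower in G34R, G34V and G34W. The median log2 fold change of the 8 members was 0.07 in G34R, 0.09 in G34V and 0.20 in G34W. Over all genes tested the medians were -0.00355, 0.00826 and 0.00891. The counts are too small to set the members apart from the other genes.

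**Figure D1:**
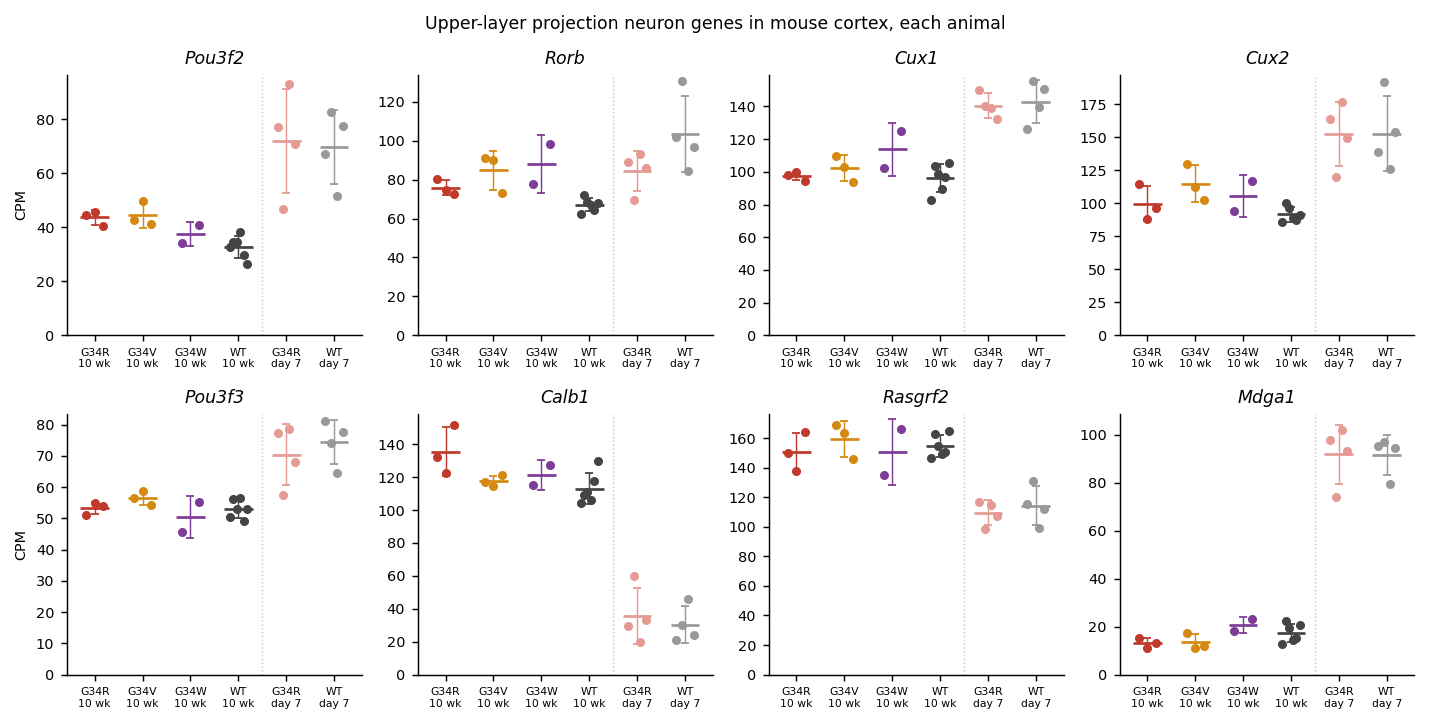
CPM (vertical axis) of each member in every animal, by genotype and age (horizontal axis); points are animals, horizontal lines are means and bars are 1 SD. At 10 weeks the G34R and G34V points for Pou3f2, and the mutant points for Rorb, lie above every WT point, while the day-7 points of the genotypes overlap.

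Pou3f2 and Pou3f3 encode POU-domain transcription factors, also known as Brn2 and Brn1, that act together in the production and migration of upper-layer neurons. Pou3f2 lies on chromosome 4 from 22482780 to 22488366 on the minus strand, and Pou3f3 on chromosome 1 from 42695768 to 42703176 on the plus strand (GRCm38). Each is a gene of 1 exon. The transcripts of the pair share no stretch of 50 bases, nor do those of Cux1 and Cux2.

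Pou3f2 had 44.6, 45.8 and 40.6 CPM in the G34R animals, against a lowest of 26.3, a median of 33.6 and a highest of 38.3 CPM in the 6 WT animals. All 3 G34R animals lay above all WT animals. The log2 fold change was 0.41 (SE 0.0993, 95% interval 0.20 to 0.62, adjusted p = 0.0198 by edgeR), a 1.33-fold rise. In the G34V animals Pou3f2 had 42.6, 49.6 and 41.1 CPM, also all above WT. In log2 terms the change was 0.44 (SE 0.0993, 95% interval 0.23 to 0.65, adjusted p = 0.0162 by edgeR). The G34W animals had 34.4 and 40.8 CPM, of which the first lay within the WT range. Their log2 fold change of 0.20 (95% interval -0.05 to 0.45) did not pass the test (edgeR adjusted p = 0.396).

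The Pou3f2 calls rested on few animals. Without G34R replicate 1 the log2 fold change was 0.40 with an edgeR adjusted p of 0.0911, and without G34R replicate 2 it was 0.38 with 0.0993. Without G34V replicate 2 it was 0.35 with 0.125. With consecutive runs of the animals' numbers as blocks, the values were 0.29 in G34R (adjusted p = 0.166) and 0.35 in G34V (adjusted p = 0.133). With library sets split by mitochondrial share as blocks, a setting chosen after seeing the data, the G34R value was 0.30 (adjusted p = 0.1298). In the fit with mitochondrial-share blocks the 2 libraries of WT replicate 3 entered as separate samples, and in the fit with number runs they were summed.

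Pou3f3, the paralogue, did not pass the test in any substitution. It had 51.1, 54.8 and 54.0 CPM in G34R, 56.4, 58.7 and 54.2 CPM in G34V and 45.5 and 55.1 CPM in G34W, against 49.3 to 56.4 CPM with a median of 53.0 CPM in WT. The ranges overlapped in all 3 comparisons. Its log2 fold change was 0.00245 in G34R (95% interval -0.13 to 0.14), 0.09 in G34V (-0.05 to 0.22) and -0.08 in G34W (-0.24 to 0.08). These intervals leave no room for a rise of the size seen for Pou3f2 in G34R or G34V, which was 0.41 and 0.44.

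Rorb encodes retinoic acid receptor-related orphan receptor beta, a nuclear receptor that marks the neurons receiving thalamic input. It lies on chromosome 19 from 18930605 to 19111196 on the minus strand (GRCm38). Rorb had 80.4, 74.5 and 72.9 CPM in G34R animals, against 62.5 to 72.4 CPM with a median of 67.6 CPM in WT animals. All 3 G34R animals lay above WT, the lowest by under 1 CPM. The log2 fold change of 0.18 (SE 0.0803, 95% interval 0.01 to 0.35) did not pass the test (edgeR adjusted p = 0.254).

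In the G34V animals Rorb had 91.3, 89.9 and 73.2 CPM, all above WT. This 1.26-fold rise was 0.34 on the log2 scale (SE 0.0799, 95% interval 0.17 to 0.51, adjusted p = 0.0208 by edgeR). The G34W animals had 77.6 and 98.5 CPM, again above WT, and changed by 0.39 on the log2 scale (SE 0.0917, 95% interval 0.20 to 0.58, adjusted p = 0.0406 by edgeR). Rorb was thus the only member whose mutant animals all lay above all WT animals for each of the 3 substitutions, though its G34R change was not called. How often the ranges of groups lie apart over all genes was not counted, here or for the other ranges given.

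The higher G34W value belongs to replicate 2, the only female at 10 weeks, whose title begins with M. Without that animal the log2 fold change was 0.20 (edgeR adjusted p = 0.309), and without G34W replicate 1 the call held. Omitting WT replicate 1, 3, 4, 5 or 6 also ended the G34W call, at adjusted p between 0.0511 and 0.0688. In G34V the log2 fold change was 0.28 without replicate 1 (adjusted p = 0.135) and 0.29 without replicate 2 (adjusted p = 0.137). The blocks of number runs ended both Rorb calls, with 0.22 in G34V (adjusted p = 0.333) and 0.42 in G34W (adjusted p = 0.114). So did the blocks of mitochondrial share, with 0.28 (adjusted p = 0.115) and 0.33 (adjusted p = 0.160). The G34W call was also lost with sex as a covariate (0.20, adjusted p = 0.301) and with limma-voom (0.37, adjusted p = 0.213). Over all alternatives Rorb was called in 20 of 25 in G34V and in 10 of 24 in G34W.

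The sequences before the starts of these genes are shown for the members that rose in more than 1 substitution and for the paralogue that did not. Each line gives the 250 bases upstream of the start in GRCm38.p6, from RefSeq, 5′ to 3′ on the strand of the gene, with CG dinucleotides in capitals. The regions are chr4:22488367-22488616 on the minus strand, chr19:19111197-19111446 on the minus strand and chr1:42695518-42695767 on the plus strand.
Pou3f2: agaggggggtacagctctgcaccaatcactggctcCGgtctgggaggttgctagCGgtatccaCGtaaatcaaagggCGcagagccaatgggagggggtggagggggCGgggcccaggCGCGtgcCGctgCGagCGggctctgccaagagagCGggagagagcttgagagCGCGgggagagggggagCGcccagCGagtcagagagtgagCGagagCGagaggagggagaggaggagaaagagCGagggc
Rorb: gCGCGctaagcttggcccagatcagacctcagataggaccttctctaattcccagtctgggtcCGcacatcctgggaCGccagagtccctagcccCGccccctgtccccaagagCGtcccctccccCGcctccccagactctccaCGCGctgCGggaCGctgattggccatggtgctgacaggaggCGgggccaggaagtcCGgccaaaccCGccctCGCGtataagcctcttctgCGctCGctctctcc
Pou3f3: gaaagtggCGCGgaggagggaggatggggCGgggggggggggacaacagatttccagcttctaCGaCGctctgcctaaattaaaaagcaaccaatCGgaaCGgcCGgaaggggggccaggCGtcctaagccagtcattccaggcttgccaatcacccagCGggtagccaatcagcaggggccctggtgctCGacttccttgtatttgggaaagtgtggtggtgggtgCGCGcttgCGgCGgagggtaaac
The windows hold 18 CG dinucleotides for Pou3f2, 18 for Rorb and 15 for Pou3f3, against a median of 6 over 32851 windows of the same length in the table. All 3 contain the CCAAT box (CCAAT, either strand), as do 33.8% of all windows. None of the 3 contains the POU octamer ATGCAAAT (1.6% of all windows), the ROR half-site AGGTCA (14%), the CUT homeodomain motif ATCGAT (0.728%) or the TATA box TATAAA (12.4%), on either strand. Of the 8 members, 7 matched the table, and Rorb has a second start there, not shown. The 3 windows were thus alike in these motifs, which describes their letters and not binding.

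Cux1 and Cux2 encode CUT homeodomain transcription factors of the superficial layers, which act on the dendrites and synapses of these neurons. Both lie on chromosome 5, Cux1 from 136248135 to 136567490 and Cux2 from 121856366 to 122050102, each on the minus strand (GRCm38). Cux2 had 130, 112 and 102 CPM in G34V animals, against 85.4 to 100.2 CPM with a median of 89.7 CPM in WT animals. All 3 lay above WT, but the log2 fold change of 0.33 (SE 0.0925, 95% interval 0.13 to 0.52) fell just outside the threshold (edgeR adjusted p = 0.0581). With DESeq2 its adjusted p was 0.0210 and with limma-voom 0.0200. Over 25 alternatives it was called in 9.

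Cux2 had 115, 88.4 and 96.1 CPM in G34R animals and 94.0 and 117 CPM in G34W animals, both overlapping WT. The log2 fold changes were 0.12 (95% interval -0.07 to 0.32) and 0.20 (-0.02 to 0.43), and neither passed. The second Cux2 ID, which the annotation used here does not hold, had 3.73 to 6.61 CPM at 10 weeks and was called in no comparison with WT.

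Cux1 had 97.9, 99.7 and 94.5 CPM in G34R, 110, 103 and 94.0 CPM in G34V and 102 and 125 CPM in G34W, against 82.9 to 105 CPM with a median of 97.6 CPM in WT. G34V replicate 1 and G34W replicate 2, the female, lay above the WT range. The log2 fold changes were 0.02 in G34R, 0.09 in G34V and 0.24 in G34W (95% interval 0.05 to 0.43), with edgeR adjusted p of 0.943, 0.654 and 0.183. An antisense gene overlaps 394 bases of Cux1 exons, or 1.97% of their length, and the strand setting of the counting is not given in the sources used here.

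Calb1, Rasgrf2 and Mdga1 act at the membrane and in signalling. Calb1 encodes calbindin, a calcium buffer of superficial pyramidal neurons that is also made by some interneurons and by striatal neurons. Calb1 had 132, 122 and 152 CPM in G34R animals, against 104 to 130 CPM with a median of 110 CPM in WT animals. Of the G34R animals, replicate 2 lay inside the WT range. This 1.20-fold rise was 0.26 on the log2 scale (SE 0.0725, 95% interval 0.11 to 0.41, adjusted p = 0.0438 by edgeR).

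The Calb1 call was close to the threshold. It was lost on leaving out any of G34R replicates 1 and 3 and WT replicates 1 to 5, with adjusted p between 0.0588 and 0.278, and was held without G34R replicate 2 or WT replicate 6. Without G34R replicate 3, the highest animal, the log2 fold change was 0.18. The 10 striatal genes all had negative log2 fold changes in G34R at 10 weeks, with a median of -0.33. They were also all negative in G34V, with a median of -0.27, and all positive in G34W, with a median of 0.30. In each substitution 0 of the 10 were called and 0 had an unadjusted p under 0.05 (edgeR). The part of striatal tissue in the Calb1 values was not tested. The G34V animals had 117, 114 and 121 CPM of Calb1 and the G34W animals 115 and 128 CPM, all inside the WT range. Their log2 fold changes were 0.06 (95% interval -0.10 to 0.21) and 0.10 (-0.08 to 0.28).

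Rasgrf2 encodes a guanine nucleotide exchange factor that activates Ras and Rac in response to calcium, and it marks the neurons just below the surface layer. It had 150, 138 and 164 CPM in G34R, 169, 164 and 146 CPM in G34V and 135 and 166 CPM in G34W, against 147 to 165 CPM with a median of 153 CPM in WT. The ranges overlapped throughout. The log2 fold changes were -0.04, 0.04 and -0.04, and the 95% intervals lay between -0.22 and 0.20.

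Mdga1 encodes a membrane-anchored immunoglobulin protein that limits synapse formation by binding neuroligins. It had 15.3, 11.3 and 13.3 CPM in G34R, 17.4, 11.1 and 12.1 CPM in G34V and 18.3 and 23.0 CPM in G34W, against 12.9 to 22.2 CPM with a median of 17.2 CPM in WT. In G34R and G34V 5 of the 6 animals lay below the WT median and G34V replicate 1 just above it, and the G34W animals lay above it. The log2 fold changes were -0.39 in G34R (95% interval -0.80 to 0.03), -0.37 in G34V (-0.78 to 0.05) and 0.25 in G34W (-0.22 to 0.72), with edgeR adjusted p of 0.321, 0.406 and 0.587.

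**Figure D2:**
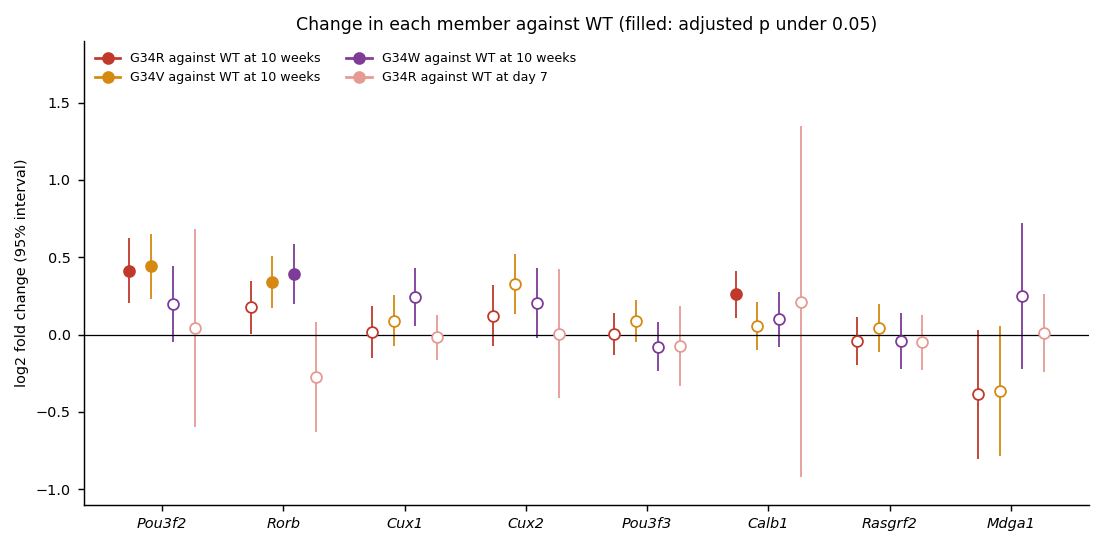
Log2 fold change against WT (vertical axis) with its 95% interval for each member (horizontal axis) in 4 comparisons; filled points have an edgeR adjusted p under 0.05. Pou3f2 is filled for G34R and G34V, Rorb for G34V and G34W and Calb1 for G34R, and no day-7 point is filled.

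The 3 substitutions were also compared with each other. Among the members 0 of 8 were called for G34R against G34V (0.230% of all genes called), for G34R against G34W (1.88%) and for G34V against G34W (0.150%) with edgeR, DESeq2 or limma-voom. At an unadjusted p under 0.05 (edgeR) there were 1, 2 and 1 members, and 2316, 3871 and 2486 of all 21274 genes tested. Calb1 was 0.20 higher in G34R than in G34V on the log2 scale (95% interval 0.03 to 0.38, edgeR adjusted p = 0.398), and the 3 G34R animals lay above the 3 G34V animals. Mdga1 was lower in G34R than in G34W by a log2 difference of -0.64 (95% interval -1.16 to -0.11, adjusted p = 0.193) and in G34V than in G34W by -0.61 (-1.14 to -0.08, adjusted p = 0.355), with no overlap in either pair. Cux1 was -0.22 in G34R against G34W (95% interval -0.44 to -0.01, adjusted p = 0.251), also without overlap. For Rorb, called in G34V and G34W and not in G34R, the differences were -0.16 for G34R against G34V (-0.36 to 0.04) and -0.21 for G34R against G34W (-0.43 to 0.00467). A difference between substitutions was thus not shown for any member, and the intervals do not show that they act alike.

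Other genes of the layers were measured beside the members. Of 15 other upper-layer genes, 1 was called higher and 1 lower in G34R, 0 and 2 in G34V and 1 and 1 in G34W, with median log2 fold changes of 0.09, -0.05 and -0.07. At an unadjusted p under 0.05 there were 2 higher and 1 lower in G34R, 1 and 3 in G34V and 3 and 2 in G34W. Such a p was found for 3851, 3321 and 3647 of all 21274 genes, in either direction. Lamp5, which encodes a synaptic membrane protein, fell in all 3: it had 72.7 ± 2.62 CPM in G34R, 69.4 ± 4.83 CPM in G34V and 73.0 ± 1.75 CPM in G34W (SD, n = 3, 3 and 2), against 111 ± 11.4 CPM in WT (n = 6). In log2 terms these were -0.61, -0.68 and -0.61 (edgeR adjusted p = 6.01e-05, 3.80e-05 and 0.00288). Its direction was opposite to that of Rorb and Pou3f2 in the same animals. Agmat, which encodes an agmatinase, was 0.94 higher in G34R (adjusted p = 0.0258) at 1.46 ± 0.348 CPM against 0.765 ± 0.179 CPM in WT, Rspo1, a secreted activator of Wnt signalling, -0.79 in G34V (adjusted p = 0.0114), and Otof, which encodes the calcium sensor otoferlin, 0.98 in G34W (adjusted p = 0.0481).

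Of 18 deep-layer genes, 0 were called higher and 2 lower in G34R, and 0 in either direction in G34V and G34W (edgeR). At an unadjusted p under 0.05, 9 were lower in G34R, 4 in G34V and 4 in G34W, and 1 was higher in G34W. Over all 21274 genes, 3851, 3321 and 3647 had such a p in either direction. Negative values were found for 15, 17 and 14 of the 18, with medians of -0.23, -0.16 and -0.09. Fezf2, a transcription factor that specifies neurons projecting below the cortex, fell in G34R to 11.8 ± 0.647 CPM (n = 3), against 17.7 ± 3.14 CPM in WT (n = 6), with a log2 fold change of -0.58 (edgeR adjusted p = 0.00790). It was -0.18 in G34V (adjusted p = 0.522) and -0.59 in G34W (adjusted p = 0.0536). Crym, which encodes a thyroid hormone binding protein, fell in G34R by 0.31 on the log2 scale (adjusted p = 0.0490). Bcl11b was -0.25, -0.15 and -0.03 and Tbr1 -0.04, -0.13 and -0.08 in G34R, G34V and G34W, none of them called. No member was called lower in these comparisons.

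**Figure D3:**
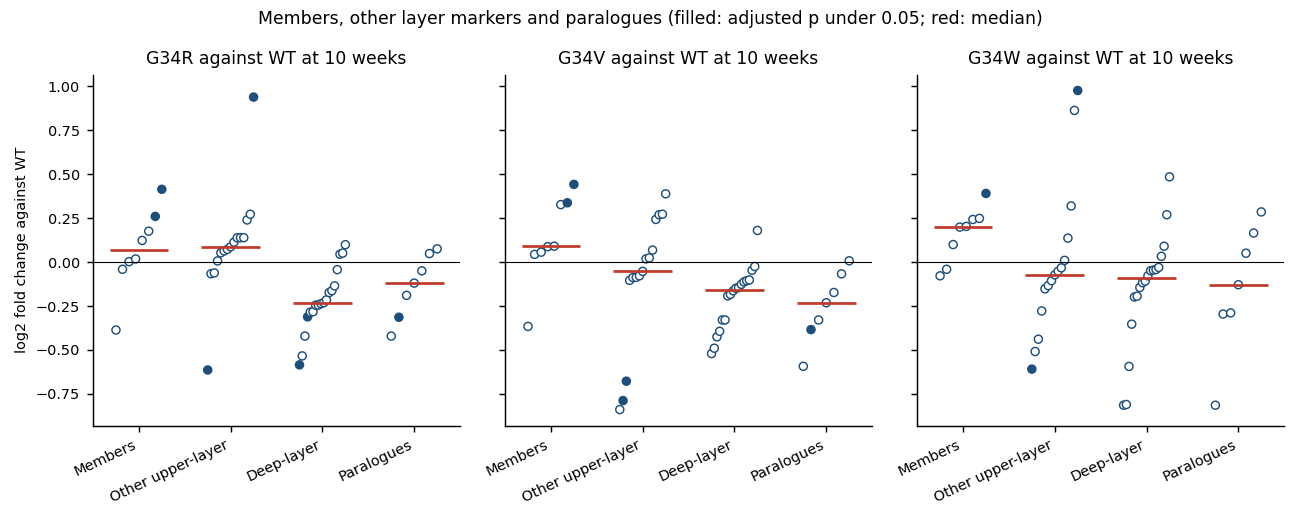
Log2 fold change against WT at 10 weeks (vertical axis) of the 8 members, 15 other upper-layer genes, 18 deep-layer genes and 7 paralogues of the members (horizontal axis) in each substitution; each point is a gene, red lines are medians and filled points have an edgeR adjusted p under 0.05. The median of the members is above 0 and that of the deep-layer genes below 0 in all 3 panels.

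Relatives of the members in the same gene families were measured too. Rasgrf1, the paralogue of Rasgrf2, fell in G34R and G34V, where Rasgrf2 had log2 fold changes of -0.04 and 0.04. Rasgrf1 had 206 ± 11.5 CPM in G34R and 196 ± 7.78 CPM in G34V (n = 3 each), against 256 ± 15.0 CPM in WT (n = 6). The log2 fold changes were -0.31 (edgeR adjusted p = 0.00852) and -0.38 (adjusted p = 0.00251), and -0.29 in G34W (adjusted p = 0.0743). Among the others, Pou3f1 had -0.42, -0.33 and -0.81, Pou3f4 0.08, -0.17 and -0.13, and Rora 0.05, 0.01 and 0.05 in G34R, G34V and G34W. Calb2 had -0.05, -0.23 and 0.29 and Mdga2 -0.12, -0.07 and 0.17. None of these 5 was called against WT with edgeR.

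At day 7 no member was called in G34R against WT, where 0.308% of all genes were called (edgeR). The count was also 0 at an unadjusted p under 0.05, found for 1585 of 20451 genes, and with DESeq2 and limma-voom. The spread between animals was wide. Pou3f2 had 77.3, 46.8, 93.3 and 70.8 CPM in G34R, against 67.0, 82.9, 51.5 and 77.6 CPM in WT. The log2 fold change was 0.04 with a 95% interval of -0.59 to 0.68, which includes the rise seen at 10 weeks.

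Rorb had 89.3, 69.8, 93.4 and 86.0 CPM in G34R at day 7, against 102, 131, 84.5 and 96.9 CPM in WT. The G34R animals were mostly lower, with overlap at the bottom of the WT range. On the log2 scale this was -0.28 (95% interval -0.63 to 0.08, edgeR adjusted p = 0.772). The other members had log2 fold changes between -0.07 and 0.21. The narrowest of their intervals was that of Cux1, from -0.16 to 0.13.

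None of the other layer genes was called at day 7 either (edgeR): at an unadjusted p under 0.05 there were 2 higher and 0 lower of 14 upper-layer genes tested and 1 and 1 of 18 deep-layer genes. Lamp5 had 0.35, Fezf2 -0.18, Bcl11b 0.07 and Tbr1 -0.13 on the log2 scale.

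The same animals stood apart for several members. G34R replicate 2 was the lowest of the 4 G34R animals for Cux2 with 120 CPM, Pou3f2 with 46.8, Pou3f3 with 57.5, Rorb with 69.8, Rasgrf2 with 98.6 and Mdga1 with 74.2, and the highest for Calb1 with 59.8 CPM. WT replicate 3 was the lowest WT animal for Cux2 with 126 CPM, Pou3f2 with 51.5, Pou3f3 with 64.6, Rorb with 84.5, Rasgrf2 with 98.9 and Mdga1 with 79.3, and the highest for Calb1 with 46.2 CPM. These were also the animals with the highest sums of the 10 striatal genes, 527 CPM in G34R replicate 2 and 431 CPM in WT replicate 3, while the other 6 animals had 188 to 408 CPM. The same 2 animals also had the highest sums of the 7 thalamic genes, 89.8 and 86.3 CPM, and of the 12 interneuron genes, 959 and 873 CPM. Their sums of the 15 other upper-layer genes were the lowest at day 7, 838 and 821 CPM. The part of striatal or other tissue and cells in the spread was not tested. At 10 weeks the highest Calb1 values were not in the animals with the highest striatal sums.

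**Figure D4:**
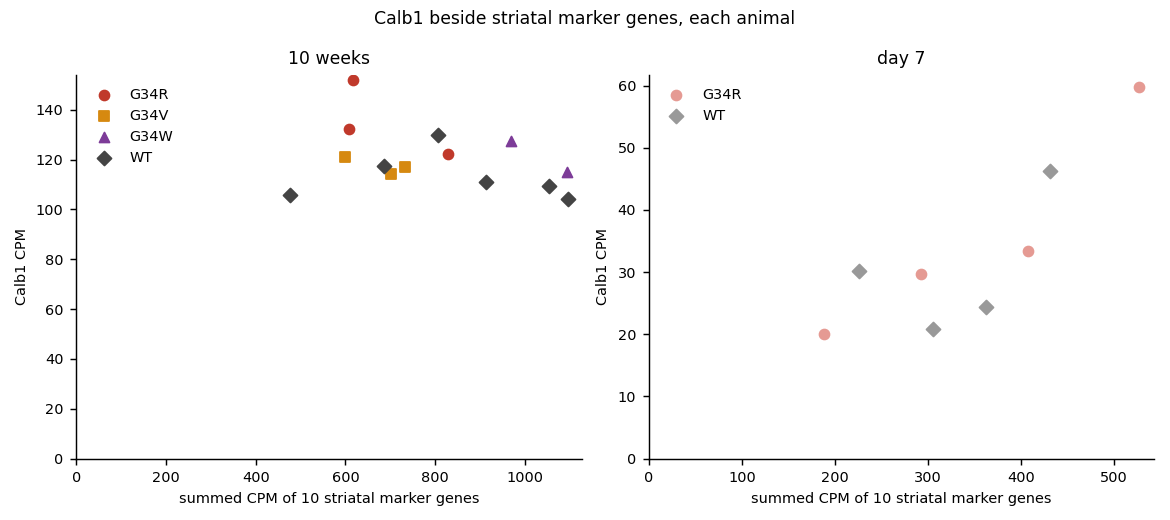
Calb1 CPM (vertical axis) against the summed CPM of 10 striatal genes (horizontal axis) in each animal at 10 weeks (left) and day 7 (right). At day 7 the 2 animals with the highest striatal sums, 527 and 431 CPM, have the highest Calb1 values, 59.8 and 46.2 CPM, and at 10 weeks the highest Calb1 value, 152 CPM, is in a G34R animal with a striatal sum of 617 CPM.

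Whether the G34R effect differed between the ages was tested in a fit of all 22 animals. Among the members 0 of 8 were called, against 1.16% of all genes, with edgeR, DESeq2 and limma-voom. An unadjusted p under 0.05 (edgeR) was found for 2463 of 22417 genes and for 1 member. That was Rorb, whose G34R effect was 0.47 higher at 10 weeks than at day 7 on the log2 scale (SE 0.158, 95% interval 0.14 to 0.80, adjusted p = 0.214 by edgeR's quasi-likelihood test). It was called among males only (0.73, adjusted p = 0.0498) and when libraries were scaled to excitatory neuron genes (0.54, adjusted p = 0.0245). For Pou3f2 the difference was 0.37 (95% interval -0.14 to 0.88), and for Calb1 0.03 (-0.74 to 0.79). Lamp5 was called, with a difference of -0.96 (adjusted p = 0.00206).

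Age separated the members far more than genotype. From day 7 to 10 weeks Calb1 and Rasgrf2 rose and the other 6 members fell in WT, and the same 7 calls other than Rorb were made in G34R. In WT 8 of 8 members were called, against 67.7% of all genes, 2 higher and 6 lower at 10 weeks. In G34R 7 of 8 were called, against 63.8%. Shares of this size say little about the members as a group, and the ages differ also in sex ratio. The labels give no batch, so a difference between the 2 sets of libraries cannot be told apart from age. Glial sums differed too. From day 7 to 10 weeks in WT the mean oligodendrocyte sum went from 236 to 4860 CPM. That of astrocytes went from 1896 to 3814 CPM, that of microglia from 179 to 404 CPM and that of oligodendrocyte precursors from 407 to 221 CPM. The part of the cell mix in the age values of the members was not tested.

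Calb1 averaged 113 ± 9.49 CPM at 10 weeks (SD, n = 6), against 30.4 ± 11.2 CPM at day 7 (n = 4) in WT. This was 3.71-fold higher, or 1.89 on the log2 scale (SE 0.251, adjusted p = 3.24e-06 by edgeR). In G34R it averaged 135 ± 15.0 CPM at 10 weeks (n = 3), against 35.7 ± 17.0 CPM at day 7 (n = 4), a log2 fold change of 1.92. Per length, Calb1 was at 6.27 ± 2.31 CPM per kilobase in WT at day 7, which overlapped the 7.14 ± 0.646 of Cux1 at the low end of the members, and it was the highest member at 10 weeks.

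Mdga1 moved most in the other direction. It averaged 17.4 ± 3.77 CPM at 10 weeks, against 91.6 ± 8.24 CPM at day 7 in WT, or -2.40 on the log2 scale (SE 0.154, adjusted p = 7.52e-11 by edgeR), and -2.78 in G34R. The transcription factors fell less. In WT the log2 fold changes were -1.09 for Pou3f2, -0.74 for Cux2, -0.62 for Rorb, -0.57 for Cux1 and -0.49 for Pou3f3 (edgeR adjusted p from 9.25e-08 to 1.46e-05). At day 7 in WT the highest members per length were Cux2 with 15.1 ± 2.84, Pou3f2 with 12.5 ± 2.48 and Rasgrf2 with 12.4 ± 1.42 CPM per kilobase, without a difference beyond their spread. Pou3f3 had 10.0 ± 0.960, Mdga1 9.62 ± 0.866 and Rorb 9.35 ± 1.76 CPM per kilobase, again not apart, and Cux1 had 7.14 ± 0.646. In both genotypes the ages did not overlap for any of these genes except Rorb in G34R.

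Rorb averaged 75.9 ± 3.95 CPM at 10 weeks (n = 3), against 84.6 ± 10.4 CPM at day 7 (n = 4) in G34R, and 67.1 ± 3.44 CPM (n = 6), against 104 ± 19.5 CPM (n = 4) in WT. The log2 fold change in G34R was -0.16 (95% interval -0.41 to 0.10, adjusted p = 0.270) and that in WT -0.62 (95% interval -0.84 to -0.41). The difference between these is the value of 0.47 given above, which was not called.

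Rasgrf2 was 0.44 higher at 10 weeks in WT (SE 0.0738, edgeR adjusted p = 1.38e-05) and 0.46 in G34R. Scaling to 12 excitatory neuron genes moved the median of all genes to -0.999 in WT and -0.92 in G34R. On that scale Rasgrf2 was at -0.52 and -0.43, below 0 but above the median of all genes, and Calb1 was at 0.91 and 1.02. Of the 12 genes themselves, 6 were called higher and 5 lower at 10 weeks in WT (edgeR), with log2 fold changes between -0.99 and 1.77.

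**Figure D5:**
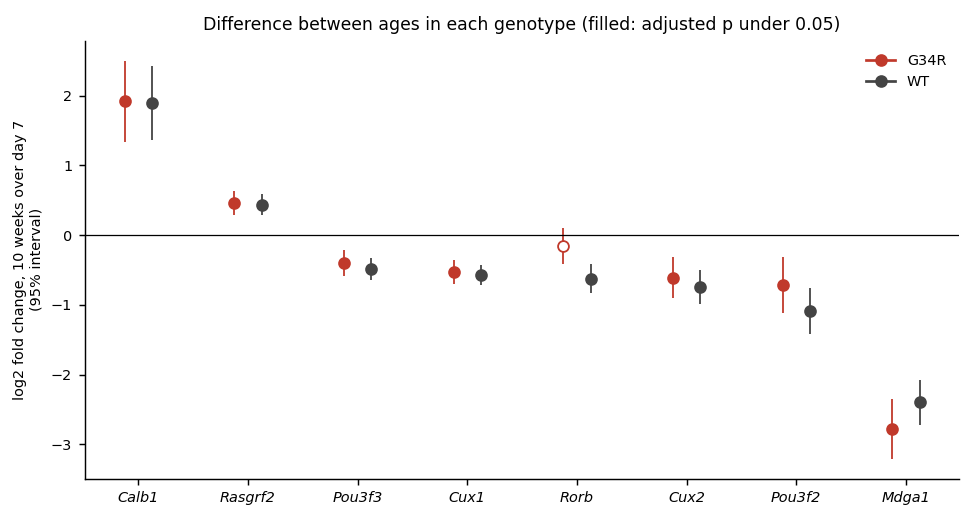
Log2 fold change of 10 weeks over day 7 (vertical axis) with its 95% interval for each member (horizontal axis) in G34R and WT; filled points have an edgeR adjusted p under 0.05. Calb1 and Rasgrf2 lie above 0 and the others below, and the open point is Rorb in G34R at -0.16.

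Other layer genes changed with age in both directions. Of 15 other upper-layer genes, 4 were higher and 8 lower at 10 weeks in WT, and of 18 deep-layer genes 3 were higher and 12 lower. Lamp5 was 3.65 higher and Dtx4 -1.84 on the log2 scale among the first, and Ntsr1 -2.58 and Sox5 -1.25 among the second (edgeR adjusted p from 2.52e-17 to 3.17e-14). Of the paralogues, Rasgrf1 was 3.29 higher, beside 0.44 for Rasgrf2, and Rora was 1.17 higher, beside -0.62 for Rorb. Mdga2 had -0.58, beside -2.40 for Mdga1. The differences between these genes were not tested.

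The members were compared in their pattern across the 14 animals at 10 weeks, as Pearson correlations of log2 CPM, which include the differences between groups and the shared libraries. Cux2 and Rorb were most alike (r = 0.878, and 0.850 after group means were removed). Cux1 and Rorb had r = 0.789, and 0.803 within groups. Calb1 and Pou3f2, which both rose in G34R, had r = 0.176, and -0.627 within groups. The last value pools all groups and does not hold in each. In G34W replicate 2 was the higher animal for both genes. Pou3f2 and Pou3f3 had r = 0.504, and 0.615 within groups.

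Among 12751 other genes, the gene most like Cux2 (r = 0.912) and most like Rorb (r = 0.919) was in both cases Castor2. The genes next in likeness were Zfp526 for Cux2 (r = 0.905) and Ago4 for Rorb (r = 0.914). Pou3f2 was most like Osbpl5 (r = 0.935) and Blnk (r = 0.924), and Pou3f3 most like Mis12 (r = 0.951) and 9830144P21Rik (r = 0.947). Cux1 was nearest to Zfp236 and Ppp1r12b (r = 0.921 and 0.909) and Mdga1 to Ptpro and Zswim5 (0.920 and 0.906). Calb1 was nearest to Ehd4 and Ccnd1 (0.895 and 0.887) and Rasgrf2 to Prickle2 and Kin (0.889 and 0.872). The highest of 12751 correlations over 14 animals is high by selection, so these values rank genes and show no relation between them.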

How the data were processed

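The authors deposited 1 table of raw counts for 23 libraries. Per the labels these were made from total RNA of pulverised cortex, with ribosomal RNA depleted. The submitters' processing notes name Trimmomatic 0.32, STAR 2.3.0e, bedtools 2.27.1, featureCounts 1.4.4 and mm10. The gene annotation release and the strand setting are not stated in the labels or the table. All values were whole numbers.

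The 2 libraries of WT replicate 3 at 10 weeks were summed, leaving 22 animals. Of 39017 genes, 37607 matched GENCODE M21 (GRCm38), which gave coordinates and exon lengths. Sex-specific genes were left out. edgeR 4.0.16 (TMM, filterByExpr, robust quasi-likelihood) was fitted to 14 animals at 10 weeks (21274 genes), to 8 at day 7 with sex as a covariate (20451 genes) and to all 22 for age (22417 genes), with Benjamini-Hochberg adjustment over all genes and a threshold of 0.05. Intervals are t-based at 95%. CPM use TMM library sizes. p-values measure the spread between animals; intervals cover no shared preparation error.

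All 8 members are named throughout, all paralogues, 5 fixed layer genes, called layer genes with the smallest adjusted p, and the 2 genes nearest to each member at a mean of at least 5 CPM. Some genes that this rule names are not reported here singly, though the list counts and medians include them. The members and lists were chosen with earlier results of these data known. Scripts were tested on simulated data. Alternatives included RLE scaling, other filters, DESeq2 1.42.0, limma-voom (limma 3.58.1), scaling to excitatory neuron genes, each library of WT replicate 3 alone, runs of animal numbers as a block, sex, only the compared groups and each animal left out. Blocking on, or staying within, library sets split by mitochondrial share was chosen after seeing the data. Those fits used single libraries. The 2 libraries of WT replicate 3 had shares of 0.933% and 1.27% and fell into different sets. Both entered the block fit as separate samples. R 4.3.3 and Python 3.11.15 were used.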

Additional observations from a re-analysis of the deposited data

Results flagged for a closer look

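In WT at day 7, Mdga1 had 79.3 CPM in replicate 3, the lowest animal, while the other 3 had 94.6, 95.3 and 97.1 CPM. The gap to the nearest animal was far larger than the spread of the others. That animal was also the lowest of its group for Cux2, Pou3f2, Pou3f3, Rorb and Rasgrf2. It had the highest striatal, thalamic and interneuron sums of its group, 431, 86.3 and 873 CPM. The part of these tissues and cells was not tested. Of 27 sets of member values in groups of 4 to 6 animals, 1 stood apart in this way, and chance gives about 1 in 20.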

How the results depend on the processing

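Member counts kept within 1.5 times of the reported count under RLE scaling, other filters and DESeq2. For G34R the count of 2 became 1 with the second library of WT replicate 3 alone, with number runs as a block, with only the compared groups and with the mitochondrial-share block, and was 0 to 2 with each animal left out. For G34V the count of 2 became 0 with number runs as a block and 1 with the mitochondrial-share block or within that set, and was 0 to 3 with each animal left out. For G34W the count of 1 became 0 with limma-voom, the second library of WT replicate 3 alone, number runs, sex as a covariate, only males, only the compared groups and both mitochondrial-share settings, and was 0 to 1 with each animal left out. The difference between ages went to 1 member, Rorb, with excitatory-gene scaling or only males, and was 0 with each animal left out. Counts between substitutions and at day 7 were 0 throughout, and those for age were 8 in WT and 7 in G34R with each animal left out. With excitatory-gene scaling, which moved the median of all genes to -0.999 and -0.92, Rasgrf2 for age was -0.5202 in WT and -0.4256 in G34R, below 0 but above that median. The causes were not tested. Of 1736 alternative values of members, 1686 stayed on the same side of the threshold and kept the direction of any call. These include 98 uncalled values that changed sign, so the count does not measure how stable the calls were. Against WT, Calb1 was called in 16 of 25 alternatives in G34R, and Pou3f2 in 21 of 25 in G34R and 23 of 25 in G34V.

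Over all genes, the count in G34R was 693 to 766 without each G34R animal against 1193, that in G34V 414 with number runs, and that in G34W 33 with limma-voom, 916 with DESeq2, 70 with number runs and 590 without replicate 2, against 343. The G34R animals are all in the low mitochondrial-share set and the G34V and G34W animals in the high one, so set and substitution cannot be told apart between them. G34W rests on 2 animals, 1 of them female. The labels give no replicate numbers shared between groups, so the blocked fits used runs of consecutive animal numbers, and whether a run marks a litter or a day is not given in the sources used here.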
